A study of Mus musculus with 2 samples.

Results

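The cells described here are the cycling tumour cells of an orthotopic mouse pancreatic cancer. A barcode was kept if it held 500 genes or more and no more than 15% of its UMIs (unique molecular identifiers, each standing for 1 captured transcript) were mitochondrial. Members were the kept barcodes that passed a tumour gate and held at least 5 UMIs of Mki67 and Top2a together. The gate asked for at least 10 UMIs of Krt8, Krt18, Krt19 and Cdkn2a, none of Ptprc or Pdgfra, and fewer than 50 of the acinar genes Ctrb1, Prss2, Try4 and Clps. The rule found 835 cells among 13749 gated tumour cells and 22472 kept barcodes. In the control library 486 of 8528 gated cells were cycling (5.70%, exact Clopper-Pearson 95% interval 5.22 to 6.21), and in the knockout library 349 of 5221 (6.68%, 6.02 to 7.4).

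A cell that divides passes through S phase, in which licensed origins fire and DNA is copied, and then through G2 and mitosis, in which cyclin B and Cdk1 drive chromosome condensation, spindle assembly and cytokinesis. Mki67 encodes the Ki-67 protein that coats mitotic chromosomes, and Top2a encodes the topoisomerase that untangles replicated DNA. Both are transcribed mainly in S, G2 and mitosis, which is why they serve as marks of proliferation. Many G2/M genes are kept off in resting cells through a promoter element called the cell cycle genes homology region and are activated together with CCAAT boxes, while many S phase genes carry E2F sites.

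KPC tumour cells, from a mouse model of pancreatic cancer, were grown in the pancreas and collected on day 21. The control mice were Porcnfl/fl (WT) and the knockout mice Csf1r-Cre;Porcnfl/fl (KO), so that both genotypes carried the floxed Porcn allele and only the second carried Cre, driven by Csf1r, a gene of macrophages and related myeloid cells. Porcn encodes the acyltransferase that Wnt ligands need for secretion. Tumours of 5 mice per genotype were pooled into 1 droplet library each, so the libraries had no replicates, and no test between them was made. All intervals are 95% intervals for counting error and say nothing of how mice differ. The labels give the floxed allele and the Cre for the host mice only, and they call the sampled cells tumour-infiltrating cells, so that the tumour cells were found by the gate and not by a label. In these cells Csf1r had 1 UMI in the control and 3 UMIs in the knockout cycling cells.

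The libraries held 13766 and 12251 barcodes, of which 11664 and 10808 were kept. They shared 46 barcodes, and 1 control and 3 knockout cycling cells had such a barcode, none of them cycling in both. Scrublet, a doublet caller, marked 1.27% and 3.16% of the kept barcodes and none of the control and 1 of the knockout cycling cells. Neutrophils, which do not divide once mature, served as a blank for the rule, among kept barcodes under the tumour gate with a Csf3r UMI. Taken by at least 20 UMIs of S100a8 and S100a9, 14 of 170 in the control and 1 of 79 in the knockout library had a UMI of Mki67 or Top2a, at median depths of 1868 and 1916 UMIs. Of these, 9 in the control (5.29%, 2.45 to 9.81) and 1 in the knockout library (1.27%, 0.0320 to 6.85) held 5 UMIs or more. Both intervals overlap those of the tumour cells, so on the rule's genes alone the tumour shares do not stand above this blank. Its UMIs of the 2 genes, 165 in the control and 8 in the knockout library, all lay in those 14 and 1 cells. It cannot tell background counts from expression in such positive cells. A second blank, taken by at least 5 UMIs of Retnlg and chosen after the first had been seen to hold such cells, had 0 of 60 and 0 of 17, which at a limit of 3 counts allows shares of up to 5.0% and 17.6% (exact upper bounds 5.96% and 19.5%), at median depths of 2118 and 2759 UMIs. What the positive cells of the first blank are was not tested. Genes outside the rule, given below, describe the members further.

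The rule set the Mki67 and Top2a levels, which are given as a description. In the control cycling cells the sum had a median of 22 UMIs and a maximum of 143, and in the knockout cells a median of 21 and a maximum of 142. Just inside the threshold, at 5 UMIs, there were 19 and 23 cells, and just outside it, at 4 UMIs, 45 and 29. Both genes were present in 94.0% of the control and 92.0% of the knockout cycling cells. Top2a outnumbered Mki67 in 381 control and 299 knockout members.

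**Figure D1:**
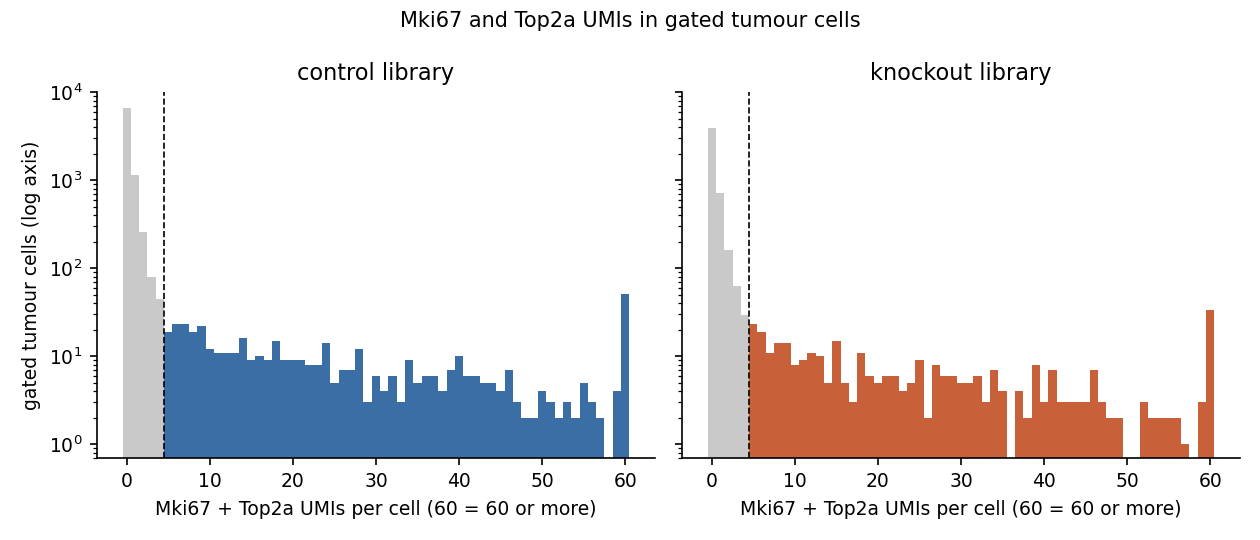
Number of gated tumour cells (log axis) by their summed Mki67 and Top2a UMIs, control library on the left and knockout library on the right. Grey bars lie under the threshold of 5 UMIs (dashed line), coloured bars are the cycling cells, and the last bar holds all cells with 60 or more, 51 and 33 cells.

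The cells compared with them were the gated tumour cells with no UMI of either gene, called zero cells here, 6522 in the control and 3898 in the knockout library. Another 1520 and 974 gated cells held 1 to 4 UMIs and belong to neither class. The cycling cells were deeper: their median was 30441 UMIs against 12958 in control zero cells, and 28943 against 14478 in the knockout library. A shallow cycling cell can therefore fall into the zero class. Thinned to 5000 UMIs per cell, cycling and zero cells held similar numbers of genes, with medians of 2160.5 and 2108 in the control and 2116.5 and 2027 in the knockout library. A level is a gene's UMIs summed over a class, divided by the summed UMIs of that class and scaled to 1000000 (CPM), with no scaling by length since a transcript is counted at its 3′ end. The log2 ratios have 1 UMI added to each sum.

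The keratins and Cdkn2a of the gate are high by the rule and check nothing, and genes outside it gave a mixed picture. Vim, an intermediate filament of mesenchymal cells, stood at 4471 CPM in control and 4854 CPM in knockout cycling cells. Cdh1, the E-cadherin gene, stood at 214 and 219 CPM. Epcam, an epithelial adhesion gene, had 8.47 and 32.9 CPM, with 73.8% of its UMIs in 5 cells, and Cldn4 had 0.0605 and 2.56 CPM. The cells are therefore called tumour cells by the gate, and no epithelial state is read into the name.

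Markers of other cell types were counted in the cycling cells. Of the 8 leukocyte genes 7 had a UMI, but their sum of 1131 and 1797 CPM was almost all Cd74, at 1125 and 1784 CPM, and Ptprc was at 0 by the rule. The 7 macrophage genes summed to 4.78 and 7.67 CPM, with Adgre1 at 0 in the knockout cells, and the 5 neutrophil genes to 8.23 and 1.92 CPM. The 7 acinar genes summed to 3.15 CPM in the control and 25.7 CPM in the knockout cycling cells, against 6.74 and 56.9 CPM in the zero cells, so that they were higher in the knockout library in both classes. Mesothelial genes summed to 282 and 222 CPM, of which Msln, which the zero cells also held at 253 and 167 CPM, made 277 and 221. The part of these other-cell transcripts in the results was not tested.

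A small set of cycling cells stood apart by fibroblast genes. In the control library 35 of 486 cycling cells (7.20%) held 10 or more UMIs of the 7 fibroblast markers, against 121 of 6522 zero cells (1.86%), and in the knockout library 2 of 349 (0.573%) against 25 of 3898 (0.641%). In the 35 control cells Col3a1 stood at 698 CPM and Dcn at 363 CPM, against 14.1 and 5.99 CPM in the remaining 451. They were deeper, with a median of 40847 against 29665 UMIs. Per depth their keratins were lower, with Krt8 at 1929 against 2545 CPM, Krt18 at 1292 against 2145 CPM and Krt19 at 682 against 2067 CPM, while Cdkn2a stood at 871 against 535 CPM. Results that rest on these cells are given below with and without them.

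Promoter sequences of the genes that the results turn on are shown first, since the G2/M and the S genes differ in them. RefSeq windows of the mouse build GRCm38.p6 run from 250 bases before to 50 bases after a gene's start, and 49 of the 59 S phase genes and 62 of the 71 G2/M genes of the fixed lists matched one. The cell cycle genes homology region was searched as TTTGAA or TTCGAA and the CCAAT box as CCAAT, both on either strand. At least 1 homology region match was in 43 of the 62 G2/M windows (69.4%), in 10 of the 49 S windows (20.4%) and in 19.4% of all 27025 genes' windows. A homology region match together with a CCAAT match was in 54.8% of the G2/M, 10.2% of the S and 7.70% of all windows.

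E2F sites were searched on either strand, and their matches can overlap. The first word was TTCCCGC. The second word, with a CpG in its middle, was TTCGCGC. The remaining words were TTGCCGC for one and, for the last, TTGGCGC. They were in 25 of the 49 S windows (51.0%), in 13 of the 62 G2/M windows (21.0%) and in 9.69% of all windows. CCAAT alone was common everywhere, in 57.1% of S, 69.4% of G2/M and 37.9% of all windows. A match is a match of letters and was not tested as a binding site. The words searched were settled after some of these promoters had been looked at, so the shares are a description.

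The stretches below are 5′ to 3′ on the gene's strand and end at or before the gene's start. They show 3 genes of G2 and mitosis, the 2 genes of the rule and 2 helicase genes of S phase. All were chosen for display because they hold matches. Ccnb2 and Cdk1 are on the cyclin list and Cdc20 is on the anaphase-promoting complex list. These 3 and the genes of the rule are not among the G2/M genes whose shares are given above. Pcna and Ccne1, looked at first, hold no E2F match in their windows and are not shown. Capitals mark homology region and CCAAT matches in the first 5 and E2F matches in the last 2.
Ccnb2, chr9:70421555-70421724, minus strand: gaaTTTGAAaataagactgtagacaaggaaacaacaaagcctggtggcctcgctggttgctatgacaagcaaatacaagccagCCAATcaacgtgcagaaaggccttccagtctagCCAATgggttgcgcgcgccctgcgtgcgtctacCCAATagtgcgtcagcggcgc
Cdk1, chr10:69352939-69353082, minus strand: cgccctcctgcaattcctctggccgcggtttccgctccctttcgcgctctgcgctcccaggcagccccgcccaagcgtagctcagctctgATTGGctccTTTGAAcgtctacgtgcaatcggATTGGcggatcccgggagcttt
Cdc20, chr4:118437353-118437513, minus strand: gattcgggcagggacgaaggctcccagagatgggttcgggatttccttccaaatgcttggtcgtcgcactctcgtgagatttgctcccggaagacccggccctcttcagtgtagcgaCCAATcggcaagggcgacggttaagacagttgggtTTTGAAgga
Mki67, chr7:135716380-135716549, minus strand: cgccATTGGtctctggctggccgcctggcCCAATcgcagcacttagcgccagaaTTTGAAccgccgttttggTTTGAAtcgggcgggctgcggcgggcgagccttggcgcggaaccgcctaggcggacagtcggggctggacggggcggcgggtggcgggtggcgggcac
Top2a, chr11:99024190-99024359, minus strand: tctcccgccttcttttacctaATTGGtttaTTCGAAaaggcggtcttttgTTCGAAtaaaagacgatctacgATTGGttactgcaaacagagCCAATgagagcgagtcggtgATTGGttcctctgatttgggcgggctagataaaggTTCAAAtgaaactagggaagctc
Mcm5, chr8:75109339-75109508, plus strand: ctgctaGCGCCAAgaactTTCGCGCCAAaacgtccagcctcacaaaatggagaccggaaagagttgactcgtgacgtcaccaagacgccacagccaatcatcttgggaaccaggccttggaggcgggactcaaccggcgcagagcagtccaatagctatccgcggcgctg
Mcm6, chr1:128359706-128359875, minus strand: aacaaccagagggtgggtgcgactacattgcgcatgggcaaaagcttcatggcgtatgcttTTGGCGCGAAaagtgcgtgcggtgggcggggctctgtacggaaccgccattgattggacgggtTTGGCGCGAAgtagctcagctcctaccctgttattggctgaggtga

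Ccnb2 held 3 CCAAT matches, 33 bases apart, and Mki67 a pair of TTTGAA matches beside its CCAAT matches. Top2a carried TTCGAA 2 times and the opposite strand of TTTGAA close to the start. Mcm6 carried the overlapping run TTGGCGCGAA at 2 places, which holds an E2F match on each strand.

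Genes of DNA replication were higher in the cycling cells as a group. Of the 20 origin licensing genes, which load the replicative helicase in G1 and fire it in S phase, 19 were at least 2-fold higher in cycling than in zero cells in each library. At least 2-fold higher were 6.71% of 13892 genes tested in the control and 6.64% of 13170 in the knockout library, and at least 2-fold lower 5.47% and 4.95%. Cycling cells were picked by 2 cell cycle genes, so these counts describe the class and are no test of it.

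Mcm5, a subunit of the helicase, stood at 46.2 CPM in control cycling cells, 2.12 in control zero cells, 49.4 in knockout cycling cells and 2.17 in knockout zero cells. Its log2 ratio of cycling to zero cells was 4.44 in the control and 4.5 in the knockout library, and the median of the list was 2.69 and 2.72. Ticrr, which activates origins, had the highest ratio of the list at 6.27 and 6.19, from 10.2 and 10.4 CPM against 0.123 and 0.127. Gmnn, the inhibitor that blocks a second licensing, was the most abundant at 126 and 145 CPM. Gins4 was the member under 2-fold, at 46.0 and 45.5 CPM against 26.0 and 25.6.

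At the replication fork 25 of 27 genes were at least 2-fold higher in each library, with median log2 ratios of 2.29 and 2.17. Pcna, the sliding clamp of the polymerases, stood at 198 CPM in control and 202 CPM in knockout cycling cells and at 43.4 and 44.8 CPM in zero cells. Clspn, a checkpoint mediator at the fork, had the highest ratio, at 61.3 and 72.0 CPM against 0.637 and 0.829. Pold3 and Rfc1 stayed under 2-fold in both libraries.

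Of the 12 genes of nucleotide synthesis 9 were at least 2-fold higher in each library, among them Tk1, the S phase thymidine kinase, at 93.4 and 102 CPM against 2.08 and 1.85, and Rrm2, a subunit of ribonucleotide reductase, at 192 and 228 CPM against 18.2 and 22.9. Ctps, at 0.99 in both, and the purine genes Paics and Gart were under 2-fold, and Paics was lower in the cycling cells at 183 and 205 CPM against 246 and 245.

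Cyclins followed the phase they serve. Ccna2, cyclin A2 of S and G2, stood at 94.7 CPM in control cycling cells against 0.339 in control zero cells, and at 88.8 against 0.239 in the knockout library, with log2 ratios of 8.08 (7.63 to 8.67) and 8.45 (7.81 to 9.38). Ccnb1, cyclin B1 of mitosis, stood at 81.8 and 79.6 CPM against 0.575 and 0.558. Ccne2, cyclin E2 of the G1/S boundary, stood at 30.4 and 30.9 CPM against 3.35 and 4.03. The ratio was thus larger for cyclins A2 and B1 than for cyclin E2.

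The D cyclins, which respond to growth signals in G1, behaved differently from each other. Ccnd1 was the most abundant cyclin, at 993 CPM in control and 1003 CPM in knockout cycling cells, and it was also high in zero cells at 623 and 565 CPM. Ccnd2 was lower in cycling cells, at 158 and 117 CPM against 211 and 163, and so was Ccnd3, at 52.6 and 38.8 CPM against 77.4 and 61.6. Among kinases, Cdk1 stood at 212 and 226 CPM against 10.8 and 9.23, while Cdk4 and Cdk6 were under 2-fold in both libraries. Of the 20 cyclins, kinases and their small subunits 15 were at least 2-fold higher in each library.

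Inhibitors of these kinases were not higher as a group: 1 of 6 was at least 2-fold higher in each library, and the median log2 ratios were -0.33 and -0.29. The exception was Cdkn2d, which encodes p19, at 100 and 97.1 CPM against 32.2 and 32.6. Cdkn1b, which encodes p27, stood at 75.7 and 87.0 CPM against 107 and 117. Cdkn1a, the p53 target p21, stood at 58.1 and 49.1 CPM against 43.6 and 39.9, and 23% of its UMIs in cycling cells came from 5 cells. The 18 and 17 p53 targets tested had medians of -0.03 and 0.16, and a weighting of the zero cells to the depth of the cycling cells turned the knockout value to -0.05.

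Of the 19 E2F and DREAM complex genes 10 in the control and 11 in the knockout library were at least 2-fold higher. The repressors E2f7 and E2f8, which shut down S phase genes, stood at 14.3 and 48.5 CPM in control cycling cells against 0.185 and 4.98 in zero cells. E2f1, an activator, stood at 26.0 and 26.1 CPM against 8.51 and 7.60. Rbl2, the pocket protein of resting cells, was lower, at 14.5 and 14.1 CPM against 24.2 and 22.5. Foxm1, the activator of G2/M genes, stood at 31.1 CPM in control and 19.9 CPM in knockout cycling cells, against 0.863 and 0.478 in zero cells, so that the knockout level was lower in both classes by less than 2-fold.

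The mitotic kinase, kinetochore and spindle lists had the largest median ratios of the 26 lists. All 13 mitotic kinase and chromosomal passenger genes were at least 2-fold higher in each library, with medians of 6.09 and 5.89. Aurkb, the kinase of the passenger complex, stood at 62.2 and 67.3 CPM against 0.411 and 0.271. Plk1, which promotes mitotic entry and spindle poles, stood at 54.5 and 49.3 CPM against 0.586 and 0.669. Birc5, the passenger protein survivin, was the most abundant of the list at 287 and 245 CPM against 2.02 and 1.74.

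Of the 30 kinetochore and checkpoint genes 30 in the control and 29 in the knockout library were at least 2-fold higher. Cenpf, a kinetochore protein of G2 and mitosis, stood at 333 and 325 CPM against 1.16 and 1.61, with log2 ratios of 8.15 (7.90 to 8.45) and 7.64 (7.37 to 7.96). Bub3, which also has roles outside mitosis, had the smallest ratio, 1.05 and 0.97. Among the 28 spindle and cytokinesis genes 27 were at least 2-fold higher in each library. Hmmr, a spindle protein, had log2 ratios of 8.64 and 8.0 from 119 and 114 CPM in cycling cells, while Ckap5, a microtubule polymerase, was under 2-fold at 119 and 107 CPM against 60.3 and 61.7.

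In the condensin and cohesin list 11 of 15 genes were at least 2-fold higher in each library. Smc2 and Smc4, the condensin core, stood at 201 and 359 CPM in control cycling cells against 19.5 and 92.6 in zero cells. The cohesin core genes Smc1a, Smc3 and Rad21, which act in all cells, were under 2-fold. Pttg1, the gene of securin, which holds back separase until anaphase, ran the other way: 38.2 and 32.1 CPM in cycling cells against 57.4 and 74.5 in zero cells, past 2-fold in the knockout library. Espl1, the gene of separase itself, stood at 15.7 and 12.2 CPM against 0.123 and 0.112.

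The list of the anaphase-promoting complex, the ubiquitin ligase that ends mitosis, and its partners was mixed. Its median log2 ratio was 0.20 in the control and 0.43 in the knockout library, with 5 and 6 of 19 genes at least 2-fold higher. The activator Cdc20 stood at 94.2 and 87.3 CPM against 1.33 and 1.91, the E2 enzyme Ube2c at 525 and 500 CPM against 2.12 and 2.20, and the inhibitor Fbxo5 at 43.8 and 53 CPM against 2.03 and 2.13. The core subunit Anapc2 stood at 40.8 and 32.2 CPM against 41.5 and 37.1. Among the genes named here, the activator, the inhibitor and the E2 enzyme were thus past 2-fold. So was the core subunit Anapc15, at 44.9 and 39.7 CPM against 12.9 and 11.8, unlike Anapc2.

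Of the 25 histone, chromatin and tubulin genes 23 in the control and 22 in the knockout library were at least 2-fold higher, and all 25 were above 0 in both. H2afz, a histone variant, was the most abundant at 1400 and 1304 CPM against 323 and 319. Hist1h1b, a replication-dependent linker histone, stood at 389 and 282 CPM against 1.61 and 1.29. Transcripts of such histones largely lack a poly(A) tail, and a capture at the poly(A) tail sees only part of them. Of the 26 DNA repair genes 24 were at least 2-fold higher in each library, with median log2 ratios of 3.94 and 4.23.

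**Figure D2:**
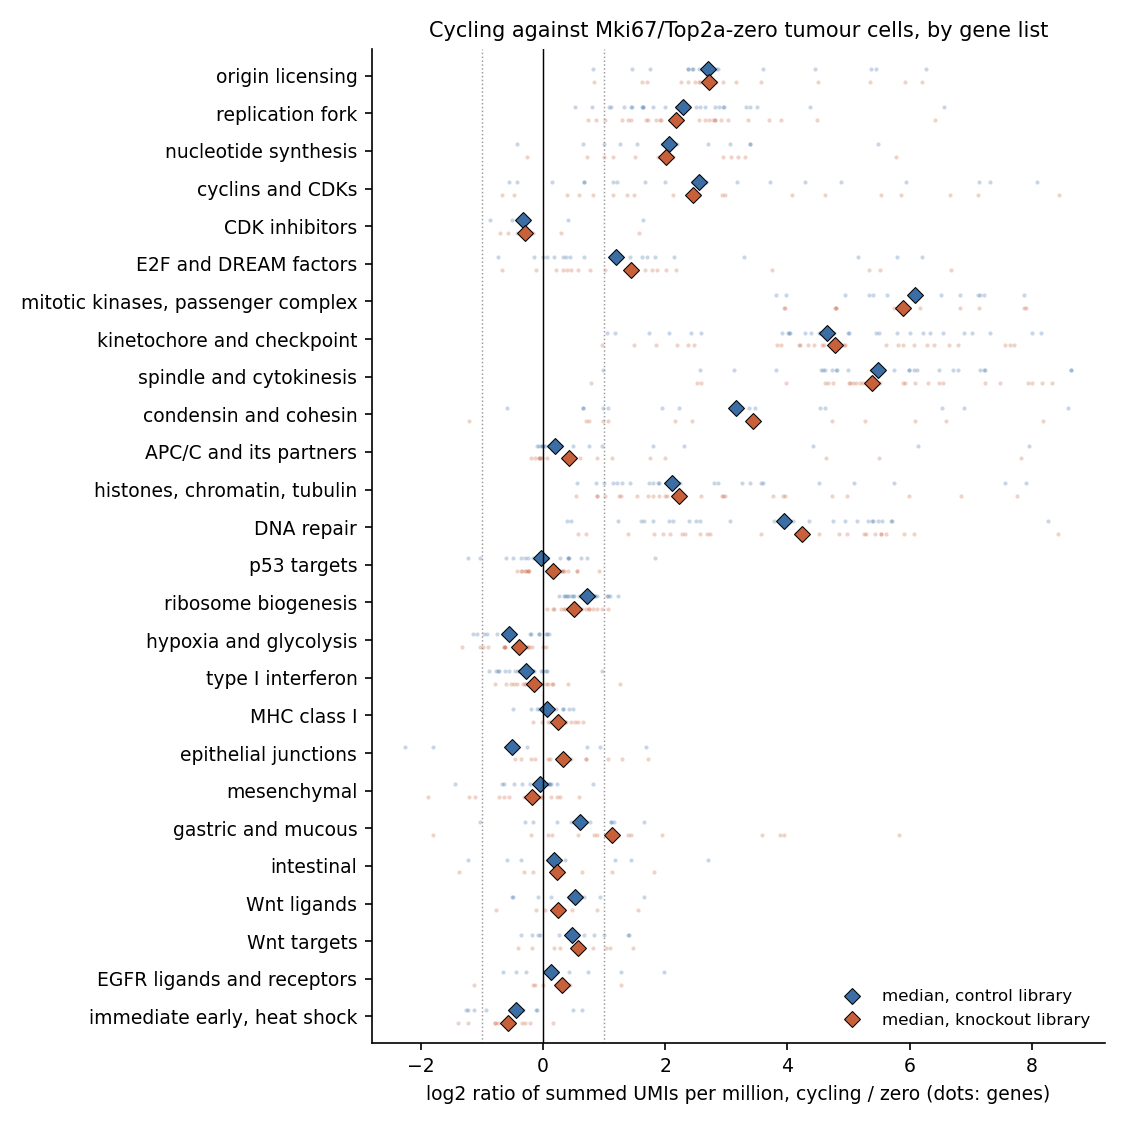
Log2 ratio of summed counts (CPM) in cycling over zero tumour cells (x axis) for 26 gene lists (y axis), with dots for genes of at least 50 UMIs and diamonds for list medians, blue for the control and orange for the knockout library. The 3 mitotic lists have medians from 4.65 to 6.09, the S phase lists from 2.01 to 2.72, and dotted lines mark 2-fold.

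The 15 genes with the highest ratios in both libraries, chosen by the smaller of their 2 log2 ratios, were Hist1h3c, Hist1h2af, Neil3, Esco2, Ccna2, Hmmr, Aspm, Pbk, Ube2c, Pimreg, Hist1h1b, Pif1, Ska1, Cenpf and Pclaf. Of them 10 were on the fixed lists. Hist1h3c, a histone H3 gene, stood at 86.7 and 85.8 CPM against 0.164 and 0.239. Pclaf, a partner of the sliding clamp, stood at 359 and 360 CPM against 1.59 and 1.90, and was seen in 94.4% and 89.1% of cycling cells. Neil3, a glycosylase that unhooks crosslinks in S phase, stood at 31.4 and 32.7 CPM against 0.0925 and 0.0797, from 9 and 5 UMIs in all zero cells together.

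The lowest genes by the same rule fell into a blood group and a set of low genes. Hbb-bs, Hba-a2, Hba-a1 and Hbb-bt, the haemoglobin chains, were at or under 0.822 CPM in cycling cells, but from 95.4% to 97.9% of their UMIs in zero cells came from 5 cells. The others were Serpina7, A630076J17Rik, Gm32461, Chil4, Cxcl12, Igfbp5, Sult1a1, Bmf, Agt, Pou6f1 and Tcp11l2. Chil4 was likewise concentrated, with 88.7% of its zero-cell UMIs in 5 cells.

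Cxcl12, the chemokine ligand of Cxcr4, stood at 4.54 CPM in control cycling cells against 35.0 in zero cells, and at 2.10 against 22.0 in the knockout library. Its log2 ratios were -2.93 (-3.30 to -2.62) and -3.33 (-4.05 to -2.80), and 2.44% of its zero-cell UMIs were in 5 cells. Bmf, a pro-apoptotic BH3-only gene, stood at 2.24 and 1.83 CPM against 11.5 and 7.95. Tcp11l2 stood at 5.99 and 3.93 CPM against 24.5 and 25. These 3 were spread over many zero cells, with at most 2.44% of UMIs in 5 cells.

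Across libraries, 640 of 13045 genes tested in both were at least 2-fold higher in both, which is 79.7% of the 803 in the control and 75.6% of the 847 in the knockout library. In the lower direction 249 were shared, 40.0% of 623 and 40.1% of 621.

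Outside the cell cycle the list medians were smaller. The 19 ribosome biogenesis genes were all above 0 in both libraries, with medians of 0.72 and 0.51, and Srm, the spermidine synthase, stood at 73.7 and 58.9 CPM against 31.5 and 28.2. Hypoxia and glycolysis genes had medians of -0.56 and -0.39 over 18 genes, with 15 and 16 below 0 and 2 in each library at least 2-fold lower, against 5.47% and 4.95% of all genes. The glycolytic enzymes Ldha, Pkm and Eno1 lay between -0.23 and 0.10. Ankrd37, a hypoxia-induced gene, stood at 36.2 and 34.2 CPM against 76.0 and 85.9. Medians over all genes tested were -0.08 and -0.04.

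Immediate early and heat shock genes had medians of -0.43 and -0.57, with Fos at 35.8 and 42.6 CPM against 83.9 and 111. Fn1, the fibronectin gene, was lower in cycling cells at 265 and 125 CPM against 716 and 461, although Vim and the mesenchymal medians of -0.04 and -0.18 were near 0. Onecut2, a transcription factor of the intestinal list, stood at 118 and 78.8 CPM against 275 and 203. Areg, the ligand amphiregulin of the EGF receptor, was higher at 132 and 90.4 CPM against 33.2 and 37.3, with 21% of its cycling UMIs in 5 cells.

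The gastric and mucous list had medians of 0.61 and 1.13, but these rested on few cells. Of Tff2, a trefoil peptide gene of mucous neck cells, 88.5% of the cycling UMIs were in 5 cells, and of Agr2 95.3%. Muc5ac, the mucin of gastric surface cells, was spread more widely, with 17.8% in 5 cells, and stood at 230 CPM in control cycling against 469 in zero cells and at 366 against 418 in the knockout library. With zero cells weighted to the depth of the cycling cells the medians were -0.10 and -0.17.

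The Mki67 and Top2a sum ordered the cells by more than its own genes. In control cells with 1 UMI the G2/M lists, which hold neither rule gene, summed to 360 CPM, close to 317 in zero cells. They summed to 1241 CPM at 4 UMIs, 2356 at 6 to 9, and 8999 at 60 or more. The S lists summed to 1047 CPM in zero cells, peaked at 4150 CPM in cells with 10 to 29 UMIs and stood at 3092 CPM at 60 or more. Knockout cells had the same shape, with a G2/M sum of 316 CPM in zero cells and 9801 at 60 or more and an S peak of 4469 CPM at 10 to 29. Depth also moved along this axis, from a median of 12958 UMIs in control zero cells to 39091 in cells with 60 or more.

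**Figure D3:**
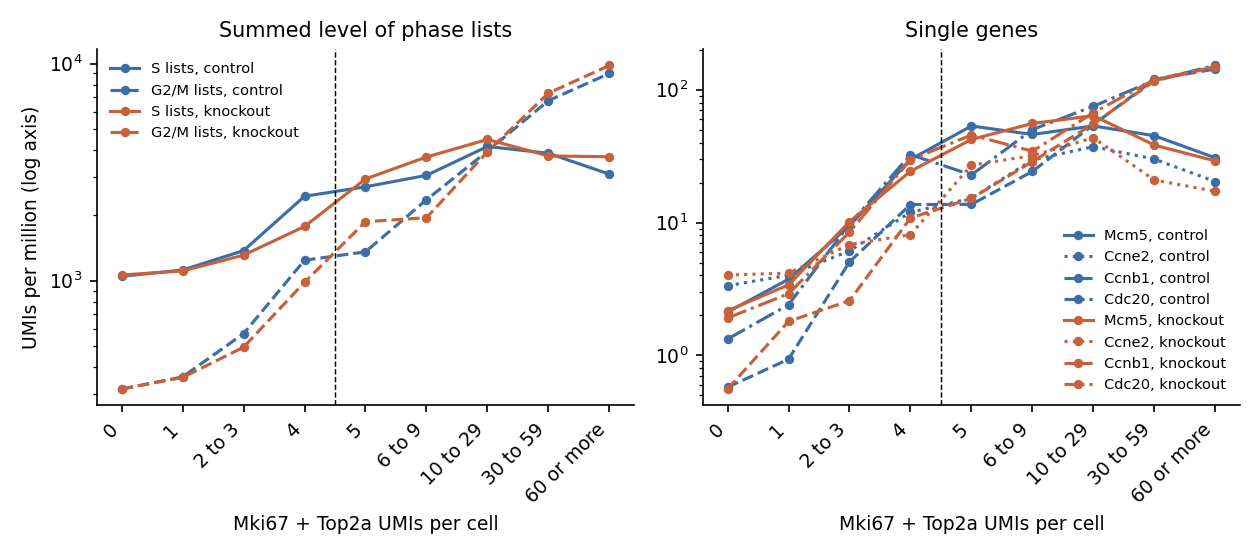
Level in CPM (log axis) by the cell's summed Mki67 and Top2a UMIs (x axis), on the left for the S lists (solid) and G2/M lists (dashed), on the right for Mcm5, Ccne2, Ccnb1 and Cdc20, blue for the control and orange for the knockout library. The dashed vertical line is the threshold of 5, and the S lists peak at 10 to 29 UMIs while the G2/M lists are highest at 60 or more.

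Some single genes kept to this order and others did not. Ccne2 was highest at 10 to 29 UMIs, with 37.3 and 43.5 CPM, and stood at 20.3 and 17.2 CPM at 60 or more. Ccnb1 stood at 13.7 and 15.2 CPM at 5 UMIs and at 143 and 149 CPM at 60 or more. Ccne1, the cyclin E1 gene, was instead highest at 30 to 59 UMIs, with 11.2 and 9.65 CPM. The histone gene Hist1h2ap stood at 254 and 203 CPM at 10 to 29 UMIs and at 475 and 512 CPM at 30 to 59. In the cells just under the threshold, at 4 UMIs, Mcm5 was already at 29.9 and 24.3 CPM, against 2.12 and 2.17 in zero cells, so that the class just outside the rule also held cells with replication transcripts.

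Each cycling cell was placed by its UMIs of S genes and of G2/M genes after thinning to 5000 UMIs. The medians were 17 S and 23 G2/M UMIs in the control and 18 and 23 in the knockout cells, against 5 and 1 in zero cells of both libraries. S UMIs outnumbered G2/M UMIs in 197 of the 486 control members (40.5%). The knockout library had 158 such members of 348 (45.4%), 1 cell being too shallow. Without thinning the shares were 42.4% and 45.3%. The counts differed by at most 5 UMIs in 111 and 62 cells, 22.8% and 17.8%, so the division is a range and not a set of types.

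**Figure D4:**
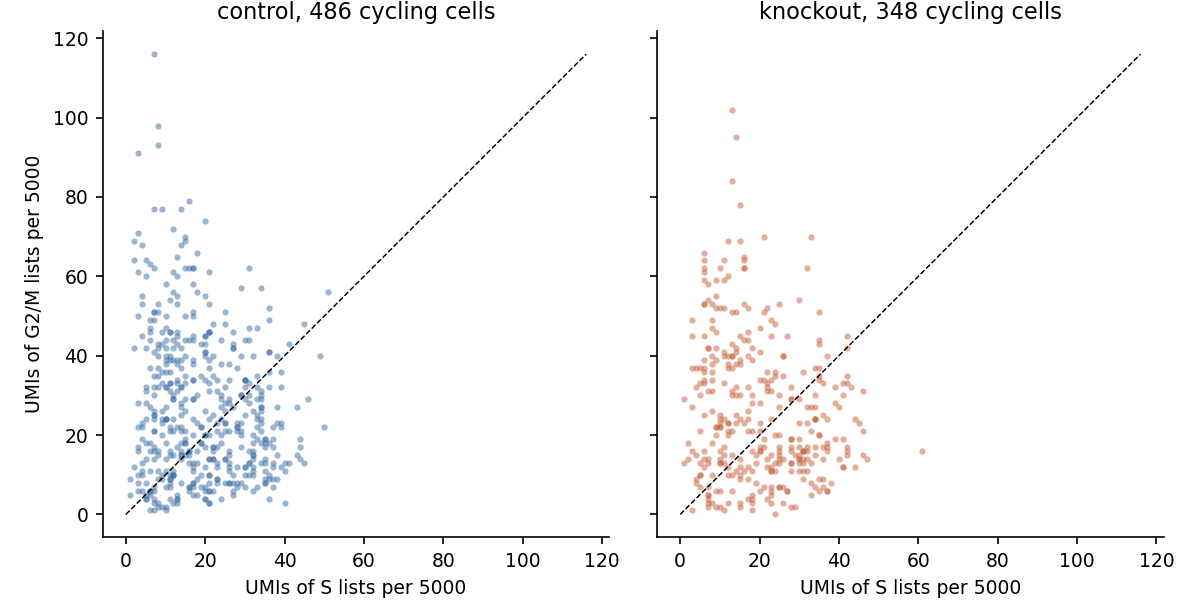
UMIs of the S lists (x axis) and of the G2/M lists (y axis) in each cycling tumour cell thinned to 5000 UMIs, control library on the left and knockout library on the right, with the line of equal counts dashed. The cells spread on both sides of the line without a gap, with 274 of 486 and 186 of 348 above it.

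Several genes outside the division's own lists followed it, while replication-dependent histones were higher on the G2/M side. Ccne2 stood at 51.8 CPM in control cells with more S UMIs and at 16.0 CPM in those with more G2/M UMIs, and at 52.5 and 13.4 CPM in the knockout library. Ccnb1 ran the other way, with 17.5 against 129 CPM in the control and 14.8 against 132 CPM in the knockout library. Cdc20 stood at 19.5 against 150 CPM and at 15.7 against 145 CPM. E2f1 was higher on the S side, at 44.5 against 13.1 CPM, and Cdc25c, the phosphatase that activates Cdk1, on the G2/M side, at 22.8 against 3.47 CPM, both in the control library. Hist1h1b stood at 308 CPM on the S side against 446 on the G2/M side in the control, and at 188 against 349 in the knockout library. Hist1h2ap stood at 243 against 366 CPM and at 195 against 377 CPM.

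Some transcripts did not depend on the side. Ccnd1 stood at 983 and 1006 CPM in the control and at 1006 and 1011 CPM in the knockout library. Hypoxia genes summed to 9301 CPM on the S side and 8946 on the G2/M side in the control library, and to 9233 and 9983 in the knockout. Among zero cells of at least 5000 UMIs, 12 of 6202 in the control (0.193%) and 10 of 3760 in the knockout library (0.266%) reached the median S count of cycling cells. None reached the median G2/M count, which at the same limit of 3 counts allows shares of up to 0.0484% and 0.0798% (exact upper bounds 0.0595% and 0.0981%).

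Between the libraries the cell cycle genes of cycling cells were at like levels. Of 11556 genes tested, 1.10% were at least 2-fold higher and 2.02% at least 2-fold lower in the knockout than in the control cycling cells. No member of the licensing, fork, nucleotide, cyclin, inhibitor, E2F, kinase, kinetochore, spindle, condensin, anaphase-promoting, chromatin or repair lists was past 2-fold in either direction. Their medians lay between -0.07 and 0.17, and that of all genes tested was -0.05. Single genes could still differ beyond counting error, as Foxm1 did at -0.64 (-0.88 to -0.41) and Hist1h1b at -0.46 (-0.53 to -0.40).

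Interferon genes were higher in the knockout cycling cells. All 22 type I interferon genes were above 0, with a median log2 ratio of 0.78, and 7 were at least 2-fold higher, against the background of 1.10%. Zero cells of the same libraries had a median of 0.67 with 5 of 22 at least 2-fold higher, against 1.85% of 14564 genes, so that the difference was not confined to cycling cells. With the cells of 10 or more fibroblast UMIs left out the median in cycling cells was 0.68.

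Ifi27l2a, an interferon-induced gene, had the largest ratio of the list: 168 CPM in control cycling, 85.7 in control zero, 554 in knockout cycling and 231 in knockout zero cells. It was seen in 49.0% of control and 75.4% of knockout cycling cells. Ifit3, which binds viral RNA complexes, stood at 206 and 494 CPM in cycling and 348 and 746 CPM in zero cells. Irf7, the transcription factor that amplifies interferon, stood at 73.9 and 158 CPM in cycling and 109 and 197 CPM in zero cells. Within each library, therefore, Ifit3 and Irf7 were lower in cycling than in zero cells, while Ifi27l2a was higher.

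The MHC class I list, the antigen presentation genes that interferons also induce, had a median of 0.32 in cycling cells, with 14 of 14 above 0 and none past 2-fold, and 0.12 in zero cells. Psmb8, a subunit of the immunoproteasome, stood at 731 and 1028 CPM in cycling and 632 and 787 CPM in zero cells. Cd74, the invariant chain of MHC class II, stood at 1125 and 1784 CPM in cycling and 1494 and 1740 CPM in zero cells.

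The 10 genes with the highest knockout ratio in cycling cells, leaving out those with more than 50% of UMIs in 5 cells, were Ctrb1, Prss2, Clps, Serpina3f, Epsti1, Cxcl9, Ifi206, Serpina3g, Ifi27l2a and AC168977.2. The first 3 are acinar genes used in the gate. They stood at 9.77, 4.84 and 4.75 CPM in knockout cycling cells, under their levels of 18.0, 10.7 and 13.5 CPM in knockout zero cells, and the acinar sum differed between the libraries in both classes as given above.

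Cxcl9, a chemokine that attracts T cells and is induced by interferon gamma, stood at 232 CPM in control cycling, 122 in control zero, 877 in knockout cycling and 193 in knockout zero cells. The log2 ratio of knockout to control was 1.92 (1.86 to 1.97) in cycling and 0.66 in zero cells. A UMI of it was found in 38.1% of control and 54.7% of knockout cycling cells, and 17.6% of its cycling UMIs were in 5 cells. Serpina3g, a serine protease inhibitor gene, had a like pattern, with 20.7 and 73.8 CPM in cycling and 10.4 and 18.7 CPM in zero cells. Both genes were thus higher in cycling than in zero cells of each library, and their knockout ratio was larger in cycling cells. The rise over zero cells was not particular to the cycling cells. Cells with 1 to 4 UMIs of Mki67 and Top2a held Cxcl9 at 232 CPM in the control and 360 CPM in the knockout library. They held Serpina3g at 19.8 and 37.6 CPM, so that in the control they were level with cycling cells for both genes. With cells thinned to 5000 UMIs the ratio of Cxcl9 in cycling cells was 1.62.

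**Figure D5:**
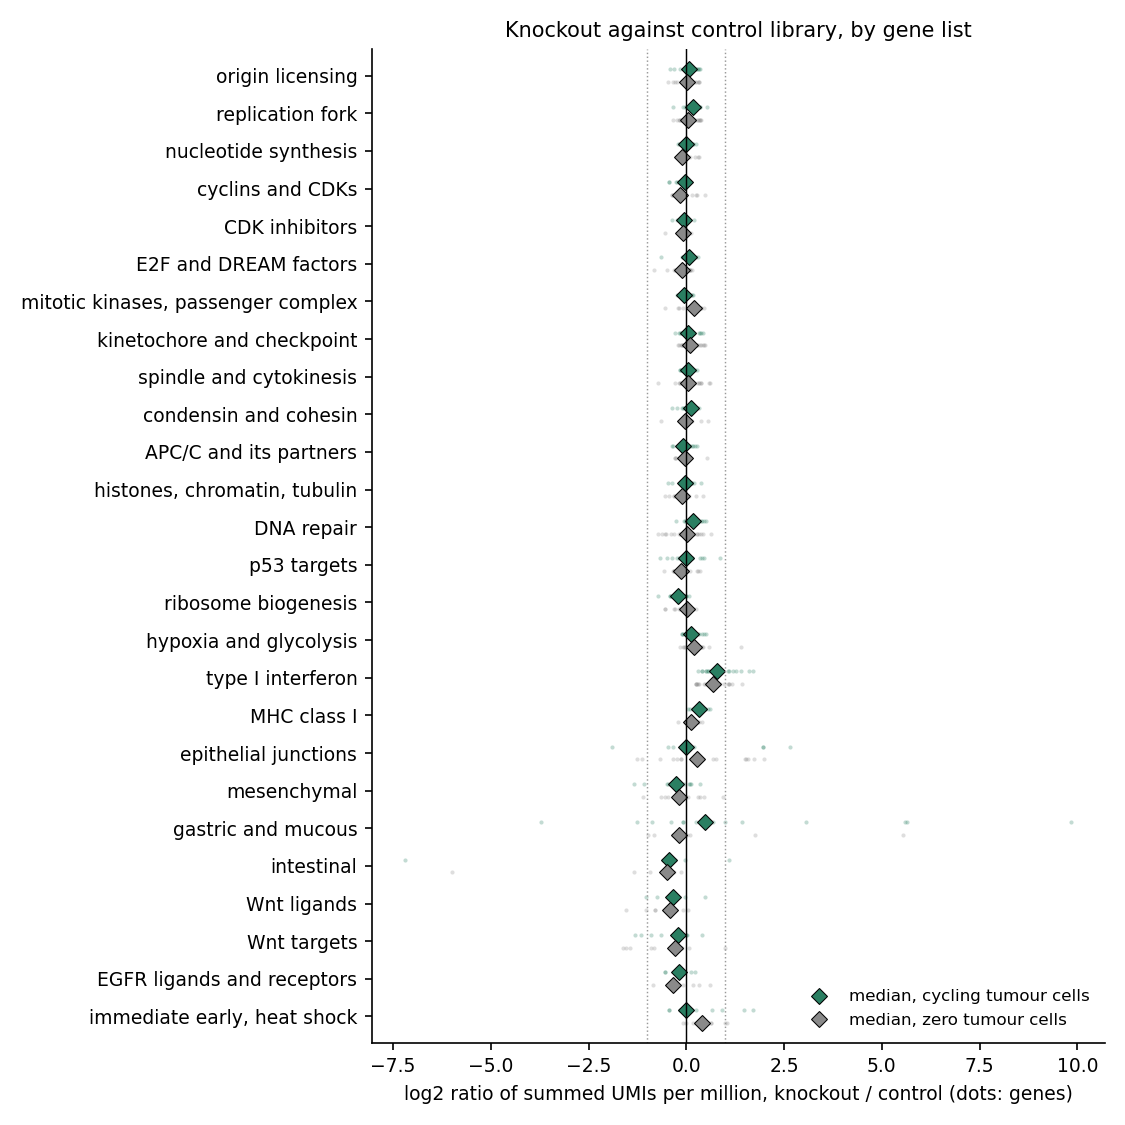
Log2 ratio of summed counts (CPM) in the knockout over the control library (x axis) for 26 gene lists (y axis), with dots for genes of at least 50 UMIs and diamonds for medians, green for cycling and grey for zero tumour cells. The type I interferon medians are 0.78 and 0.67, and the cell cycle medians in cycling cells lie between -0.07 and 0.17.

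The 10 lowest genes were Crabp2, Gm2115, Tmem200a, 3830403N18Rik, Bnc2, Cd244a, Anxa10, Gng11, Ust and Chst11. Crabp2, a carrier of retinoic acid, had 408 UMIs in control cycling cells (24.7 CPM) and 0 in knockout cycling cells. At a floor of 3 UMIs over the class it was at least 90.1-fold lower, and Gm2115, with 91 and 0 UMIs, at least 20.1-fold lower. Without the cycling cells of 10 or more fibroblast UMIs, described above, Crabp2 had 80 and 0 UMIs and was at least 19.5-fold lower, and Gm2115 had 31 and 0 and was at least 7.56-fold lower. Crabp2 stood at 5.05 and 0.223 CPM in zero cells.

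Many of these UMIs came from the 35 control cells with fibroblast genes. They held 80.4% of the Crabp2, 76.1% of the Bnc2, 75.2% of the Gng11 and 73.6% of the Ust UMIs of the control cycling cells, and 2.53% of those of Anxa10. Without cells of 10 or more fibroblast UMIs, 148 instead of 234 genes were at least 2-fold lower, and Gm2115, Tmem200a, 3830403N18Rik, Cd244a and Ust had under 50 UMIs. The other 5 were still lower in the knockout cells. Gng11, a G protein subunit gene, moved from -3.61 to -1.84, Crabp2 from -8.08 to -5.89 and Chst11 from -3.005 to -2.549. Bnc2 hardly moved, at -3.82 and -3.80, although most of its UMIs lay in the 35 cells. Anxa10, an annexin of gastric epithelium, was at -3.73 and -3.84. Anxa10 too rested on few cells: it had 79 UMIs in control and 3 UMIs in knockout cycling cells, 47.6% of them in 5 cells. A UMI of it was found in 4.73% of control cycling cells. The identity of the 35 cells was not tested.

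The knockout ratio differed most between cycling and zero cells for genes carried by a few cells. Mucl3, Tagln, Gkn3, Rgs5 and Ttr were higher and Il11, Igha, Dmkn and Sycn lower in this difference, and from 89.4% to 100% of their cycling UMIs were in 5 cells. Il11, a cytokine of the interleukin-6 family, had 3541 UMIs in control and 22 UMIs in knockout cycling cells, with 97.4% of them in 5 cells. Ins2, the insulin gene of islet beta cells, was the exception in cycling cells, with 11.2% in 5 cells, but 95.8% of its zero-cell UMIs were in 5 cells.

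Wnt genes, which bear on the deleted Porcn, were low in cycling cells. Of the 19 ligands 5 reached 50 UMIs over the cycling cells of both libraries, and their median knockout ratio was -0.34. With the cells of 10 or more fibroblast UMIs left out it was -0.21. In zero cells the median was -0.42, with 8 of the 9 ligands tested there below 0, so that the lower level was not confined to cycling cells. Wnt7b, the most abundant, stood at 50.4 CPM in control and 29.8 CPM in knockout cycling cells and at 26.3 and 21.5 CPM in zero cells. Wnt4 stood at 33.8 and 16.4 CPM in cycling and 47.3 and 16.1 CPM in zero cells. Porcn itself had 82 UMIs (4.96 CPM) in control and 26 UMIs (2.37 CPM) in knockout cycling cells, and 7.87 and 5.72 CPM in zero cells.

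The Wnt target list had a median knockout ratio of -0.22 over 9 genes in cycling cells, with none at least 2-fold higher and 2, Lgr5 and Tcf7, at least 2-fold lower. In zero cells it was -0.29, with 3 of 11 at least 2-fold lower, against 2.39% of all genes tested there. Myc stood at 36.2 and 36.1 CPM in cycling cells. Against zero cells the targets had medians of 0.47 and 0.58, with Apcdd1, an inhibitor of the pathway, at 14.6 and 14.5 CPM against 7.28 and 6.80.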

How the data were processed

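Per the labels, tumour tissue was digested with collagenase V and DNase I and cells of 5 pooled mice per genotype went into 1 droplet library each, with capture at the transcript's 3′ end. The authors deposited raw UMI counts per gene and barcode, whole numbers with no normalization, and the gene and barcode names (other text). The matrix headers name Cell Ranger 8.0.0 and the submitters' processing notes name 3.1.3 and the build mm10; which one made the files was not settled. The files list 32285 gene identifiers.

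UMIs were summed over the cells of each class, divided by the class total and multiplied by 1000000. Log2 ratios had 1 UMI added to each sum; genes with at least 50 UMIs over the compared classes were compared at a 2-fold difference, with no p-value. Intervals were exact (Clopper-Pearson, or conditional on the gene's total). Cells were thinned without replacement. Doublets were not removed, except as an alternative. The ratio was tested on simulated data. Library depths were 173934025 and 137527647 UMIs, and the cycling classes held 16530830 and 10955072. Symbols were taken from the files, and 1 list gene with 2 identifiers was left out. Python 3.11, numpy, scipy and scanpy were used.

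The members and lists were chosen with earlier results of these data known. Named genes followed a rule: the genes of the gate; the 15 highest and lowest cycling over zero by the ratio nearer 0 of both libraries; the 10 highest and lowest knockout ratios with at most 50% of UMIs in 5 cells; the 5 highest and lowest differences between those ratios in cycling and zero cells; and per list up to 4 abundant and the extreme genes. Other genes were named for their role after their values were seen. The second neutrophil blank, the fibroblast filter, the promoter words and displayed promoters, and part of the alternatives were chosen after seeing the data.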

Additional observations from a re-analysis of the deposited data

Results flagged for a closer look

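Barcodes past the threshold on the rule's genes also lay outside the tumour gate, where no comparison above uses them. Among kept barcodes outside the gate, 108 of 3136 in the control (3.44%) and 224 of 5587 in the knockout library (4.01%) held at least 5 UMIs of Mki67 and Top2a, against 9 of 170 and 1 of 79 neutrophils of the first blank and none of the 60 and 17 of the second. These shares do not stand above the interval of the first blank in either library (2.45 to 9.81 in the control and 0.0320 to 6.85 in the knockout). The neutrophils lie outside the gate themselves and are counted among these barcodes, so a whole is set against its own part. That blank cannot tell background counts from expression in its positive cells, as given above.

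Of the 20 genes named by their knockout ratio, 11 had a cycling over zero ratio of opposite sign in the libraries, and in 5 of these the counting intervals of both ratios lay off 0. The difference itself was not tested. Genes named for their difference between cycling and zero cells were chosen for such a pattern and are not counted. Tmem200a stood at 1.06 in the control and -2.24 in the knockout library, Bnc2 at 0.75 and -1.39, Cd244a at 1.26 and -1.51, Anxa10 at 1.66 and -1.80, and Gng11 at 1.55 and -1.14. All but Anxa10 had from 46.8% to 76.1% of their control cycling UMIs in the 35 cells with fibroblast genes. Anxa10 had 47.6% of its cycling UMIs in 5 cells.

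The median knockout ratio had opposite signs in cycling and zero cells in 7 of 26 lists, again untested. In 3 of them the summed UMIs of the list had the same signs, with counting intervals off 0: E2F and DREAM factors at 0.08 and -0.12, ribosome biogenesis at -0.21 and 0.021, and gastric and mucous genes at 0.47 and -0.19. The other 4 were mitotic kinases at -0.05 and 0.20, condensin and cohesin at 0.11 and -0.03, epithelial junctions at -0.02 and 0.27, and p53 targets at 0.0027 and -0.13. Several gastric genes had most of their cycling UMIs in 5 cells. The ribosome biogenesis median in zero cells, with 10 genes above 0 and 9 below, changed sign under an alternative way of processing. So did a median of each of the other 4 lists.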

How the results depend on the processing

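No paired analysis was possible because each genotype gave 1 pooled library. The share of cycling cells moved with the rule: 7.15% in the control and 8.43% in the knockout library at 3 UMIs, 4.46% and 5.13% at 10 UMIs, 3.96% and 4.62% at 500 CPM of the cell, 6.47% in the control with a tumour gate of 20 UMIs, and 5.98% in the knockout with at least 2 UMIs after thinning to 5000. The share was larger in the knockout library under all 9 alternatives, which reuse the cells of the same 2 libraries. With at least 2 UMIs after thinning, the shares were 5.58% (5.09 to 6.10) in the control and 5.98% (5.34 to 6.66) in the knockout library, with overlapping intervals. With at least 200 UMIs per gene, 427 genes in the control and 345 in the knockout library were at least 2-fold lower in cycling cells, and 47 were higher and 83 lower in knockout than in control cycling cells, fewer genes being tested. With cells thinned to 5000 UMIs, 43 were higher and 68 lower, from fewer UMIs. Without the cells of 10 or more fibroblast UMIs, 148 were lower. Counts of genes higher in cycling cells were within 1.5 times of the reported ones under every alternative run. At 10 UMIs 33.4% of control and 38.1% of knockout cycling cells had more S than G2/M UMIs.

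The gastric and mucous median in the knockout library, 1.13, was -0.17 with zero cells weighted to the depth of the cycling cells; the cause was not tested. Of 330 values of list medians that were at least 0.5 in size for cycling over zero cells, 328 kept their direction, the other 2 being gastric and mucous. Of list medians under 0.5 in size, 14 of 242 values for cycling over zero cells and 15 of 250 for knockout over control in cycling cells changed sign. For knockout over control in zero cells 5 of 250 did, among them values of ribosome biogenesis. All 809 values of the 80 named-gene ratios of at least 0.5 in size kept theirs, where a gene still had enough UMIs to be compared. Depth limits the low genes most: 3 UMIs over a class are 0.181 CPM in control and 0.274 CPM in knockout cycling cells.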
